A study of Oryza sativa with 8 samples.

Results

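A set of 48 rice loci was silent in seedlings of the cultivar ZH11 and expressed in seedlings of the transgenic line OE1. They were picked from 57403 loci in the deposited expression matrix by fixed limits on TPM (transcript abundance per length, scaled to a fixed total per library). A locus had to have at least 2 TPM in each of the 4 OE1 libraries and at most 0.5 TPM in each of the 4 ZH11 libraries. The values of the genotype comparison therefore chose the loci, and the difference between OE1 and ZH11 is given below as a description, with no test. Silent here means at or under the limit, not absent: 18 of the 48 loci were listed at 0 in all 4 ZH11 libraries, and 8 were above 0 in all 4.

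RNA came from pools of 20 whole seedlings of Oryza sativa, aged 2 weeks and grown in hydroponic medium. There were 4 groups of 2 libraries. Treated OE1 seedlings carried the ScOYE3 overexpression construct and were exposed to 0.8 mM 2-nitroaniline for 8 h. Untreated OE1 seedlings carried the same construct and received no 2-nitroaniline. Treated ZH11 seedlings were wild-type plants given the same dose for the same time, and untreated ZH11 seedlings were wild-type plants without it. The old yellow enzymes, to which the baker's yeast protein ScOYE3 belongs, are flavoenzymes that reduce many substrates. The added compound is a nitroaromatic. OE1 is 1 transgenic line, and the promoter that drives the construct is not given in the labels. ScOYE3 is named in 0 lines of the matrix, and the transgene's own level was not analysed here. Whether the pools of a group were separate cultures is not in the labels, so the p-values cover the spread between these libraries alone, and that spread may be technical.

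Plant genomes hold many loci that are not transcribed in a given tissue. A large share of them belong to transposable elements, which plants commonly keep silent through DNA methylation and small RNAs. Retrotransposons copy themselves through an RNA intermediate, and DNA transposons are moved by a transposase that the element itself can encode. Identifiers that begin with LOC_Os belong to the public rice gene annotation and carry the chromosome number. Identifiers that begin with MSTRG are names that a transcript assembler gives to loci it has not matched to an annotated gene.

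Each library had 42.1 M to 56.5 M trimmed reads. The 5 shoot markers, which encode light-harvesting, Rubisco and photosystem proteins, summed to 27900 to 28600 TPM in treated OE1, 34300 to 35300 TPM in untreated OE1, 31800 to 32100 TPM in treated ZH11 and 35200 to 35400 TPM in untreated ZH11. The 5 root markers, all transporters, summed to 345 to 398 TPM in treated OE1, 587 to 600.0 TPM in untreated OE1, 340 to 393 TPM in treated ZH11 and 340 to 379 TPM in untreated ZH11. The lowest of the root markers, HKT2;1, had 0.94 to 1.24 TPM in OE1 and 0.34 to 1.48 TPM in ZH11. Markers of both organs were thus present in each group, and the sums of both lists were lower in treated than in untreated OE1. Between the genotypes, the root sum was higher in untreated OE1 than in untreated ZH11. The shoot sum was lower in treated OE1 than in treated ZH11. The treated root sums and the untreated shoot sums overlapped between the genotypes. The part of these differences in the choice of loci was not tested. In bulk seedlings, more cells of a type and more RNA per cell cannot be told apart. Replicate 2 of both ZH11 groups stood apart, with a GC content of 52.04% treated and 53.51% untreated, against 54.62% to 55.43% in the other libraries. The mean read length was 149.1 and 149.78 nt in these, against 144.95 to 146.85 nt. The replicates of treated ZH11 differed at least 2-fold at 3272 of 25281 loci, and those of treated OE1 at 482. For untreated ZH11 the number was 1095, and for untreated OE1 366. Without treated ZH11 replicate 2 the limits found 51 loci, and without untreated ZH11 replicate 2 they found 50. Leaving a library out removes a condition, so these numbers could only be 48 or more.

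The 48 loci ranged from low to moderate levels in OE1. Their summed level was 505 and 694 TPM in treated OE1 and 431 and 470.0 TPM in untreated OE1, against 4.28 and 3.68 TPM in treated ZH11 and 4.53 and 2.99 TPM in untreated ZH11. Mean levels over the 4 OE1 libraries ran from 2.38 to 88.1 TPM with a median of 7.11 TPM, beside a median of 11.4 TPM over all 25281 loci that reached 1 TPM in at least 2 libraries. Of the 48 loci, 19 averaged under 5 TPM in OE1, 16 from 5 to 10 TPM, 8 from 10 to 20 TPM and 5 at 20 TPM or more. The highest level of a locus in any ZH11 library had a median of 0.12 TPM over the 48.

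The 2 loci with the highest mean levels in OE1 were assembled ones. MSTRG.12740, an unannotated transcript of 577 nt with no protein match, had 63.0 and 219.5 TPM in treated OE1 and 29.5 and 40.3 TPM in untreated OE1, while every ZH11 library was listed at 0. Its level in treated OE1 rested on 1 library, since replicate 2 was far above replicate 1. MSTRG.8110 had 68.3 and 87.3 TPM in treated OE1 and 48.1 and 53.2 TPM in untreated OE1, against 0 and 0.23 TPM in treated ZH11 and 0 in both untreated ZH11 libraries. Every OE1 library was thus far above every ZH11 library at this locus, whose best protein match is an uncharacterised rice protein. The next assembled locus in order of mean level, MSTRG.9111 of 2958 nt, had 19.0 and 17.5 TPM in treated OE1 and 25.2 and 23.5 TPM in untreated OE1, and at most 0.06 TPM in a ZH11 library.

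**Figure D1:**
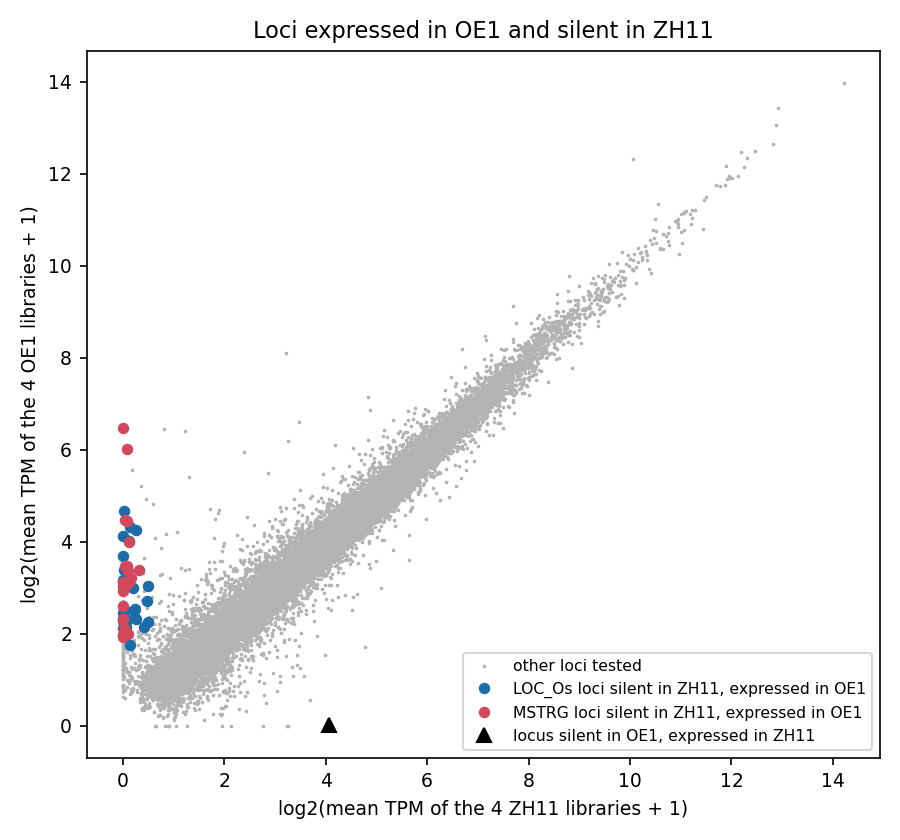
Mean TPM over the 4 OE1 libraries (vertical axis) against the mean over the 4 ZH11 libraries (horizontal axis), both as log2(TPM + 1), for the 25281 loci that reached 1 TPM in at least 2 libraries. Coloured points are the 48 loci chosen for their place at the left edge, and the triangle is the 1 locus that the same limits found with the genotypes exchanged.

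Among annotated loci, LOC_Os03g02470 had the highest mean, 24.5 TPM over the OE1 libraries, which lay between those of MSTRG.8110 and MSTRG.9111. It encodes an expressed protein with a plant domain of unknown function, and had 21.4 and 17.9 TPM in treated OE1 and 29.4 and 29.3 TPM in untreated OE1, against 0 and 0.08 TPM in treated ZH11 and 0 in both untreated ZH11 libraries. LOC_Os12g39670, a locus of no described function, had 22.5 and 30.4 TPM in treated OE1 and 11.6 and 11.2 TPM in untreated OE1, with no ZH11 library above 0.27 TPM. LOC_Os12g32390, also undescribed, had 16.3 and 16.5 TPM in treated OE1 and 20.3 and 19.9 TPM in untreated OE1, but up to 0.47 TPM in ZH11. LOC_Os02g50420, of 279 nt and undescribed, had 16.8 and 4.27 TPM in treated OE1 and 14.3 and 12.6 TPM in untreated OE1. Its treated libraries lay on either side of the untreated ones.

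**Figure D2:**
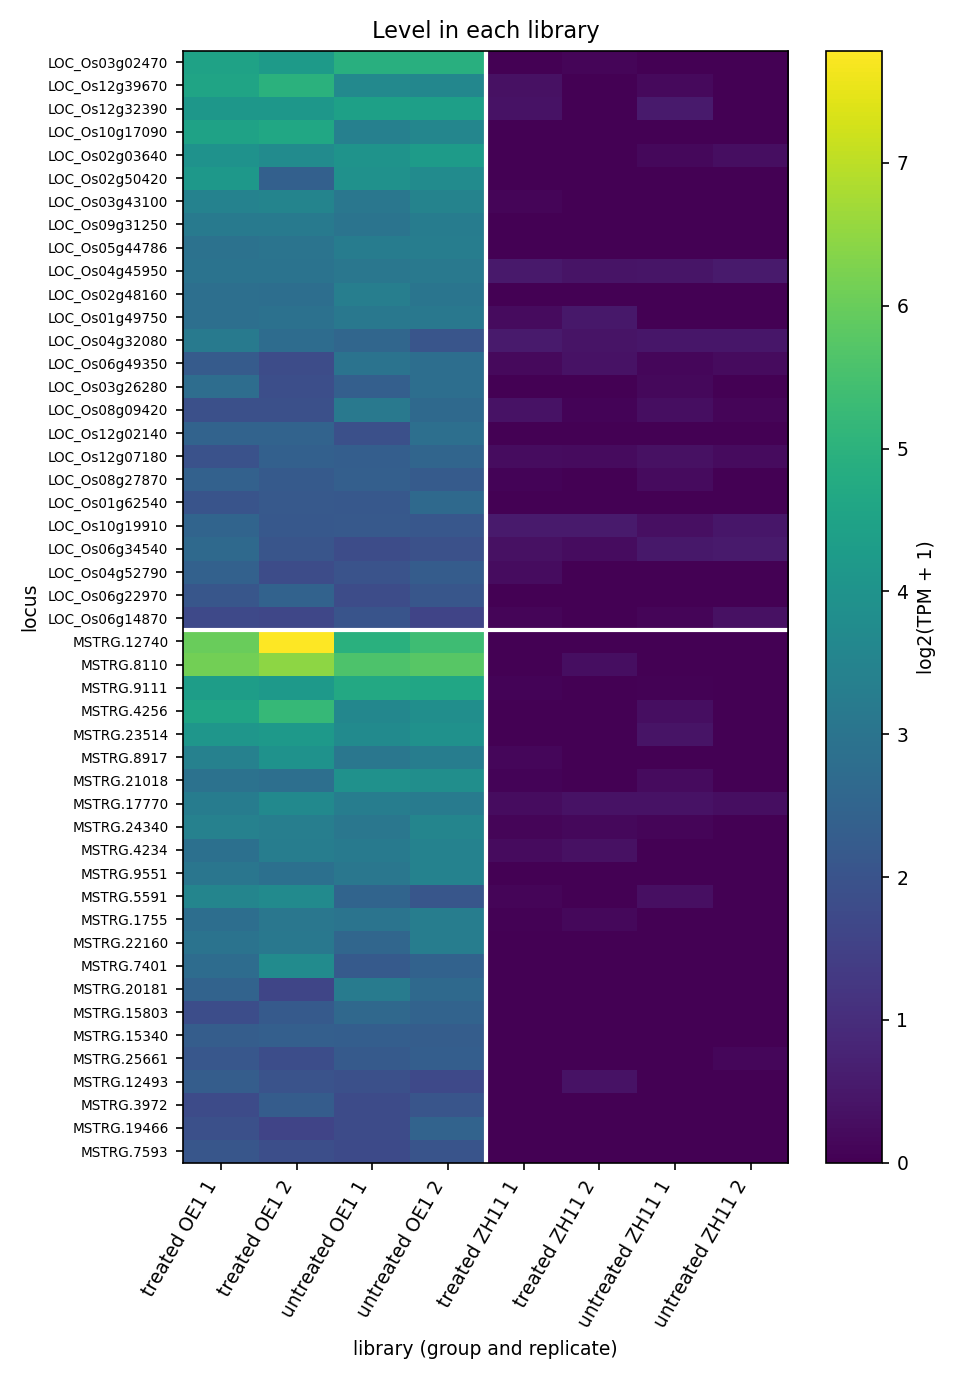
Level of each of the 48 loci, as log2(TPM + 1), in each of the 8 libraries, with the 25 LOC_Os loci above the 23 MSTRG loci and each block ordered by mean OE1 level. The OE1 columns on the left hold at least 2 TPM at every locus and the ZH11 columns on the right at most 0.5 TPM, as the limits require.

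The same limits applied the other way round found 1 locus, with at least 2 TPM in each ZH11 library and at most 0.5 TPM in each OE1 library. It was LOC_Os01g42160, annotated as a precursor of the maternally expressed gene (MEG) family of small cysteine-rich proteins. It had 0.06 and 0 TPM in treated OE1 and 0 in both untreated OE1 libraries, against 14.2 and 23.7 TPM in treated ZH11 and 12.7 and 12.2 TPM in untreated ZH11. The pools that could meet the limits were close in size, with 29744 loci silent in all ZH11 libraries and 29689 silent in all OE1 libraries. The 48 loci were 0.161% of the first pool, and the single locus was 0.00337% of the second.

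Assembled loci made up much of the set. Of the 48 loci, 23 (47.9%) were MSTRG loci and 25 (52.1%) LOC_Os loci, whereas MSTRG loci were 2.47% of the whole matrix and 5.25% of the 25281 loci tested. Of the 83 MSTRG loci silent in all ZH11 libraries, 23 (27.7%) were in the set, against 25 of 29504 silent LOC_Os loci (0.0847%). An assembled locus is listed only where some library gave reads to assemble, and which libraries entered the assembly is not given in the sources used here. In the other direction, 51 MSTRG loci were silent in all OE1 libraries and 0 of them met the exchanged limits.

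The annotation of the set was sparse. A Pfam protein domain was assigned to 12 of the 48 loci (25.0%), beside 75.7% of the loci tested, and a Swiss-Prot match to 10 (20.8%), beside 71.6%. The Pfam share was 40.0% for the LOC_Os loci of the set, beside 79.0% of tested LOC_Os loci. For the MSTRG loci it was 8.7%, beside 15.2% of tested MSTRG loci. Among all loci silent in ZH11 it was 55.4%. The Swiss-Prot share was 32.0% for the LOC_Os loci of the set, beside 74.6% of tested LOC_Os loci. For the MSTRG loci it was 8.7%, beside 18.2% of tested MSTRG loci, and among all loci silent in ZH11 35.9%. None of the 48 had a KEGG pathway, beside 19.3% of the loci tested. That share was only 6.56% of tested MSTRG loci and 4.8% of all loci silent in ZH11. By the first class that matched, 7 loci were transposons or retrotransposons, 4 had another described function, 15 were expressed or hypothetical proteins with no description and 22 had no description at all. The listed lengths were short, with a median of 844.5 nt and a range of 223 to 6657 nt, beside a median of 1601 nt for the loci tested. The LOC_Os loci of the set had a median of 861 nt, beside 1635 nt for tested LOC_Os loci. For the MSTRG loci it was 839 nt, beside 911 nt for tested MSTRG loci. A listed length need not be the length behind the TPM. In untreated OE1 replicate 1, LOC_Os05g44786 (4905 nt) had 198 estimated reads at 8.68 TPM in the authors' deposited table. LOC_Os10g17090 (1788 nt) had 286 at 9.58 TPM.

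Transposon annotations covered 14.6% of the set, and 6 of its 25 LOC_Os loci. The share was 3.88% among the loci tested and 49.3% among all loci silent in ZH11, whose median level in OE1 was 0 TPM. LOC_Os10g17090 was the highest of them. It encodes a protein with hAT dimerisation and BED zinc finger domains, of the family of the maize Activator transposase. It had 21.5 and 23.8 TPM in treated OE1 and 9.58 and 11.0 TPM in untreated OE1, and was listed at 0 in every ZH11 library. LOC_Os02g03640, described as an expressed protein but carrying transposase domains of the En/Spm type, had 14.6 and 12.6 TPM in treated OE1 and 15.1 and 18.1 TPM in untreated OE1, against 0.02 and 0 TPM in treated ZH11 and 0.12 and 0.21 TPM in untreated ZH11.

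The other transposon loci were expressed at lower levels. LOC_Os09g31250, a short locus annotated as an unclassified transposon protein, had 8.06 and 8.07 TPM in treated OE1 and 7.02 and 8.68 TPM in untreated OE1. LOC_Os05g44786 is labelled a retrotransposon protein, although its domains are those of a Helitron helicase, an enzyme of a group of DNA transposons. It had 6.67 and 6.92 TPM in treated OE1 and 8.68 and 8.89 TPM in untreated OE1. Both loci were listed at 0 in all 4 ZH11 libraries. MSTRG.1755 matched the Mutator-derived FAR1-related proteins and carried a MULE transposase domain. It had 5.96 and 7.53 TPM in treated OE1 and 6.90 and 8.81 TPM in untreated OE1, and at most 0.12 TPM in ZH11. The remaining 2 were the reverse transcriptase and integrase locus LOC_Os06g49350, described below, and the Pong-type transposon locus LOC_Os12g07180, with 2.91 to 4.78 TPM in OE1. These element families have many copies in the rice genome, so the share of reads assigned to any 1 copy is uncertain.

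Only 4 loci had another described function. LOC_Os04g45950, an amino acid permease family protein whose best match is an Arabidopsis cationic amino acid transporter, had 6.78 and 6.74 TPM in treated OE1 and 7.42 and 7.94 TPM in untreated OE1, against 0.45 and 0.33 TPM in treated ZH11 and 0.35 and 0.49 TPM in untreated ZH11. LOC_Os04g32080, a short-chain dehydrogenase annotated as a hydroxysteroid dehydrogenase, had 8.17 and 5.80 TPM in treated OE1 and 4.96 and 3.12 TPM in untreated OE1, and 0.33 to 0.47 TPM in ZH11. Both genes were above 0 in every ZH11 library, close under the limit. LOC_Os08g27870 encodes a short protein with the domain of EARLY FLOWERING proteins, which in Arabidopsis act in the circadian clock. It had 4.32 and 3.63 TPM in treated OE1 and 4.10 and 3.70 TPM in untreated OE1, and at most 0.16 TPM in ZH11. LOC_Os08g09420, an F-box protein (OsFBX266) of the family that selects proteins for ubiquitination, had 2.74 TPM in both treated OE1 libraries and 7.81 and 5.35 TPM in untreated OE1, and at most 0.29 TPM in ZH11.

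The authors' own count tables show how few reads lay behind the silent values of 20 of the 48 loci. For the other loci, among them every MSTRG locus, they give no counts. Of the 48 loci, 20 were listed in the authors' deposited table of untreated OE1 against untreated ZH11 and 17 in the authors' deposited table of treated OE1 against treated ZH11, all as higher in OE1, and the 4 deposited tables listed 0 MSTRG loci. Listed as higher in the authors' deposited tables were 0.230% of matrix loci for the untreated pair and 0.340% for the treated pair. In the authors' deposited tables the estimated counts of these loci ran from 0 to 28.6 in a ZH11 library and from 16.0 to 1008 in an OE1 library. LOC_Os03g02470 had 649 and 633 estimated reads in untreated OE1 and 0 in both untreated ZH11 libraries in the authors' deposited table. LOC_Os06g49350, the longest locus of the set, had 496 and 401 estimated reads in treated OE1 against 20.3 and 28.6 in treated ZH11 in the authors' deposited table. These listings compare the same values that picked the loci.

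The LOC_Os loci of the set were spread over the genome. Chromosomes were read from the identifiers, and MSTRG identifiers carry none. The 25 loci fell on 10 of the 12 chromosomes. Chromosomes 6 and 12 held 4 each (16.0% of the 25, beside 8.24% and 5.70% of tested LOC_Os loci), and chromosomes 2, 3 and 4 held 3 each. Chromosomes 1, 8 and 10 held 2 each, chromosomes 5 and 9 held 1 each, and chromosomes 7 and 11 held none (7.52% and 5.61% of tested LOC_Os loci). With 25 loci these counts are small. No members lay next to each other: the pair with the fewest listed loci between them, LOC_Os10g17090 and LOC_Os10g19910, had 217.

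**Figure D3:**
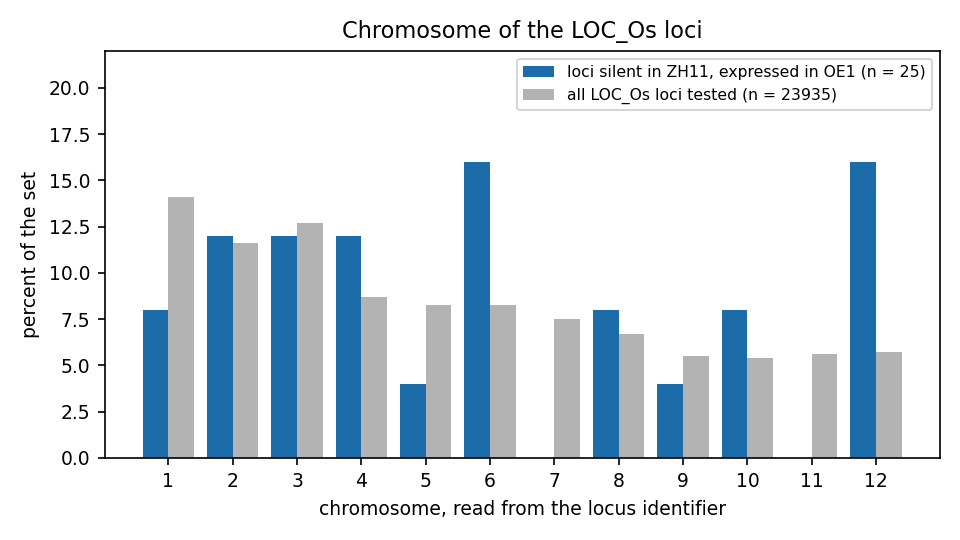
Percent of the 25 LOC_Os loci of the set (left bar of each pair) and of the 23935 tested LOC_Os loci (right bar) on each chromosome, as read from the identifier. Chromosomes 6 and 12 hold 4 loci of the set each and chromosomes 7 and 11 hold none.

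The neighbours of these loci were mostly at like levels in both genotypes or at levels too low to test. The 25 LOC_Os loci have 50 immediate neighbours by identifier, none of which is in the set. Of these, 26 did not reach 1 TPM in 2 libraries and 24 were tested. In untreated seedlings 22 of the 24 differed by less than 0.5 on the log2(TPM + 1) scale, with a median OE1 minus ZH11 difference of 0.02, beside 0.01 over all loci tested. In treated seedlings 16 of the 24 did, with a range of -0.64 to 2.23 and a median of -0.02, beside -0.03 over all loci tested. In untreated OE1 limma called 1 of the 24 higher (4.17%), beside 0.396% of all loci tested, and in treated OE1 2 higher (8.33%), beside 0.799%. None of the 24 was called lower. With 24 neighbours these counts are small. The 1 called in both conditions was LOC_Os03g02460, a short-chain dehydrogenase annotated as retinol dehydrogenase, which lies beside LOC_Os03g02470. It had 13.3 and 14.8 TPM in treated OE1 and 20.1 and 15.6 TPM in untreated OE1, against 2.56 and 1.90 TPM in treated ZH11 and 2.68 and 2.86 TPM in untreated ZH11. Its OE1 minus ZH11 difference was 2.31 ± 0.20 (SE, n = 2 per group, limma adjusted p = 0.00383) in untreated and 2.23 ± 0.20 (limma adjusted p = 0.00366) in treated seedlings. The other was LOC_Os06g34550, an expressed protein beside LOC_Os06g34540, with 4.11 and 5.61 TPM in treated OE1 against 0.71 and 0.33 TPM in treated ZH11 (1.95 ± 0.32 SE, limma adjusted p = 0.0463). Its difference was 1.47 ± 0.32 in untreated seedlings (limma adjusted p = 0.232). The counting strand is not given in the sources used here, so reads that run on from 1 gene into the next cannot be told apart from reads of the neighbour.

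The limits did not use the difference between treated and untreated OE1, so the response to 2-nitroaniline was tested within OE1. They did require 2 TPM in all 4 OE1 libraries, so a locus that the treatment switched off or on could not be in the set. The limma fit on log2(TPM + 1), with Benjamini-Hochberg adjustment over all 25281 loci and a fold threshold of 1 on the log2 scale, called none of the 48 loci, while it called 0.241% of all loci tested (0.127% higher and 0.115% lower). The smallest adjusted p among the 48 was 0.0818. At an unadjusted limma p under 0.05 there were 14 of the 48 loci (29.2%), 8 higher and 6 lower in treated OE1, beside 9.44% of all loci tested (5.36% higher and 4.08% lower). This count was 2 on log2(TPM + 0.1) and 18 on log2(TPM + 5), beside 2250 and 2497 of all 25281 loci. The fit pools the spread of all 8 libraries, and the limits hold the 48 loci near 0 in ZH11. Their low ZH11 spread on log2(TPM + 1) thus came with the choice of loci. The share of 29.2% is therefore not like for like with 9.44%, and no stronger response of the set is read from it. The median difference was -0.01 over the 48 loci and -0.04 over all loci tested, with 24 loci above and 24 below 0, and 32 of the 48 differed by less than 0.5 on the log2 scale. The summed shoot markers (27900 to 28600 TPM in treated and 34300 to 35300 TPM in untreated OE1) and root markers (345 to 398 TPM in treated and 587 to 600.0 TPM in untreated OE1) also differed in this comparison, and their part in the results was not tested. An absolute difference of at least 1 was seen at 6 loci (12.5%), beside 3.08% of all loci tested. The number was 1 on log2(TPM + 5) and 10 on log2(TPM + 0.1), beside 255 and 1600 of all 25281 loci. Replicates of OE1 also differed more in the set, with a median SD of 0.213 beside 0.119 over all loci tested. The part of that spread in the count was not tested.

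The spread behind these tests differed between the genotypes. For the 48 loci, near 0 in ZH11, the median replicate SD on the log2 scale was 0.213 in OE1 and 0.0581 in ZH11, whereas over all tested loci it was 0.119 in OE1 and 0.285 in ZH11. The standard error that limma used, which draws on the spread of all loci, had a median of 0.23 over the 48 loci in the fit of 8 libraries and 0.18 with the 4 OE1 libraries alone. It was smaller with the OE1 libraries alone at 45 loci, larger at 2 and equal to 2 decimals at 1. With the 4 OE1 libraries alone limma called 5 of the 48 (10.4%), 4 higher and 1 lower, beside 2.2% of all loci tested (1.54% higher and 0.665% lower). The same fit gave an unadjusted p under 0.05 for 18 of the 48 (37.5%), beside 22.5% of all loci. The authors' deposited table of treated against untreated OE1 listed 531 genes, 0.925% of the matrix, and 2 of the 48 loci were among them.

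**Figure D4:**
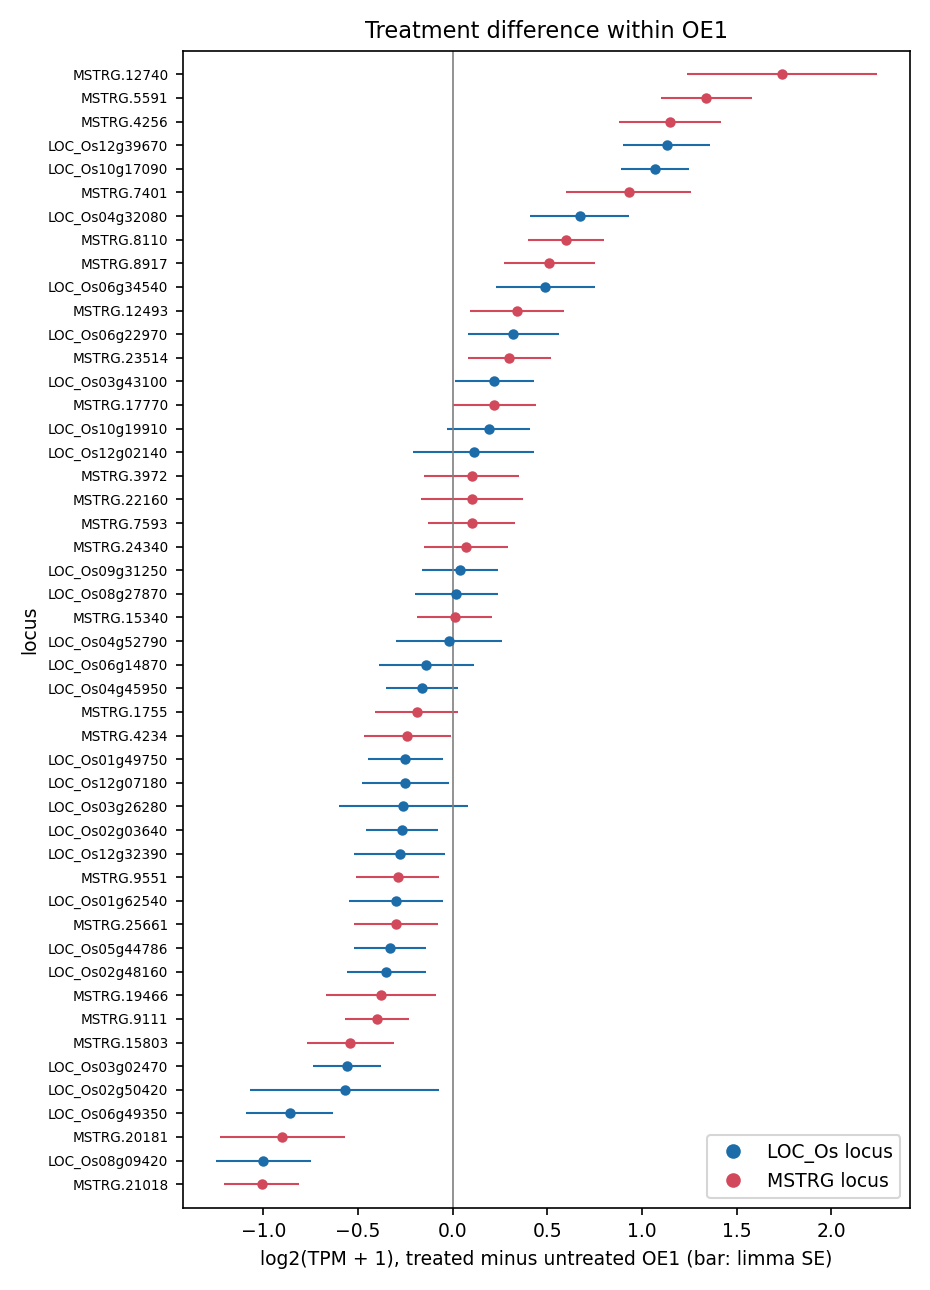
Difference between treated and untreated OE1 on the log2(TPM + 1) scale for each of the 48 loci, with the standard error from limma (n = 2 libraries per group, spread pooled over 8 libraries). The differences run from -1.01 to 1.74 around a median of -0.01.

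The largest positive differences within OE1 were at MSTRG.12740, given above, and at 4 other loci whose treated libraries both lay above both untreated ones. MSTRG.5591, whose best Swiss-Prot match is an Arabidopsis vacuolar sorting receptor, had 10.6 and 12.3 TPM in treated OE1 and 4.68 and 3.22 TPM in untreated OE1. Its difference was 1.34 ± 0.24 (SE, n = 2 per group, limma adjusted p = 0.0935, and 0.0132 with the OE1 libraries alone). MSTRG.4256, a 500 nt transcript with no match, had 22.2 and 36.4 TPM in treated OE1 and 11.1 and 13.5 TPM in untreated OE1. Its difference was 1.15 ± 0.27 (limma adjusted p = 0.176, and 0.0425 with the OE1 libraries alone).

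The hAT transposase locus LOC_Os10g17090 and the undescribed LOC_Os12g39670 were the 2 loci that the authors also listed. LOC_Os10g17090 differed by 1.07 ± 0.18 (limma adjusted p = 0.0818, and 0.00719 with the OE1 libraries alone), and LOC_Os12g39670 by 1.13 ± 0.23 (limma adjusted p = 0.125, and 0.0133 with the OE1 libraries alone). The authors' deposited table gave 1.18 on the log2 scale for LOC_Os10g17090 (adjusted p = 2.27e-08) and 1.26 for LOC_Os12g39670 (adjusted p = 0.00101). Both treated libraries were above both untreated libraries at each. MSTRG.12740 had the largest difference of the set, 1.74 ± 0.50 (limma adjusted p = 0.273, and 0.124 with the OE1 libraries alone), and without treated OE1 replicate 2 it was 0.85.

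The largest negative differences among loci whose groups did not overlap were at loci of several kinds. MSTRG.21018, which matches a hypothetical rice protein, had 6.58 and 6.17 TPM in treated OE1 and 14.4 and 13.3 TPM in untreated OE1. Its difference was -1.01 ± 0.20 (limma adjusted p = 0.112, and 0.00811 with the OE1 libraries alone). The F-box locus LOC_Os08g09420, whose values stand above, differed by -1.0 ± 0.25 (limma adjusted p = 0.203, and 0.0368 with the OE1 libraries alone, where it stayed just under the fold threshold).

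MSTRG.20181 had the shortest listed length of the set. Its levels were 4.59 and 2.08 TPM in treated OE1 and 8.41 and 5.39 TPM in untreated OE1, a difference of -0.90 ± 0.33 (limma adjusted p = 0.434). The retrotransposon locus LOC_Os06g49350 had 3.72 and 2.52 TPM in treated OE1 and 6.83 and 6.0 TPM in untreated OE1, a difference of -0.86 ± 0.23 (limma adjusted p = 0.241). LOC_Os03g02470 differed by -0.56 ± 0.18 (limma adjusted p = 0.338, and 0.0413 with the OE1 libraries alone). All 5 of these loci were picked among those whose treated libraries both lay below both untreated ones. LOC_Os02g50420, at -0.57 ± 0.50, was left out because its groups overlapped.

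**Figure D5:**
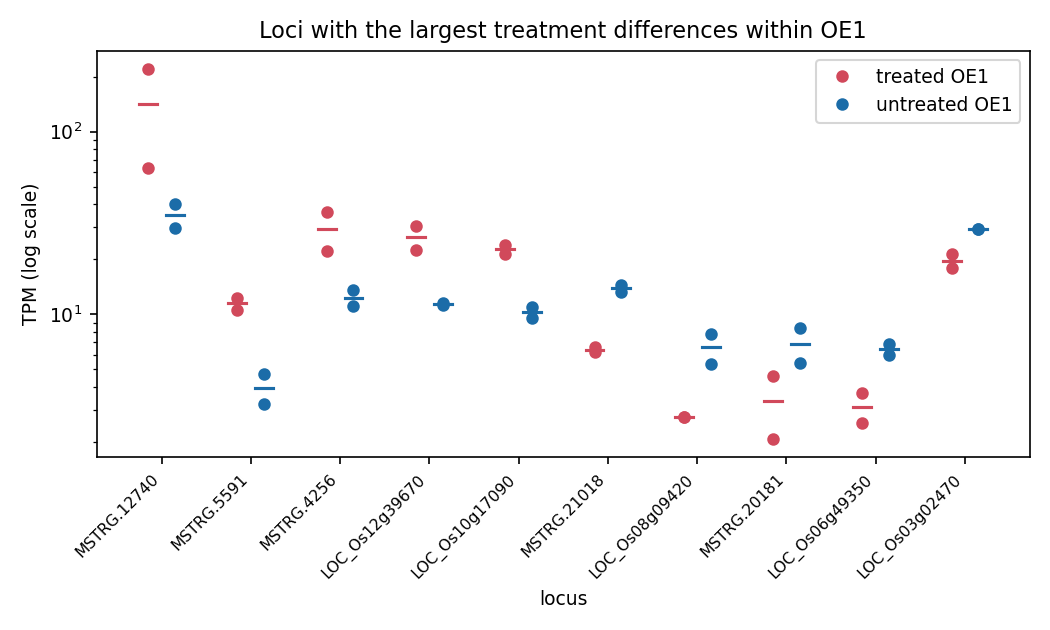
TPM on a log axis in each treated OE1 library (left in each pair) and each untreated OE1 library (right) for the 5 largest positive and the 5 largest negative differences whose groups did not overlap. Points are libraries and bars are means of 2. The treated libraries of MSTRG.12740 span 63.0 to 219.5 TPM.

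Across the set, both treated libraries lay above both untreated ones at 12 loci (25.0%) and below them at 15 loci (31.2%), beside 23.8% and 28.6% of all loci tested, and the groups overlapped at 21. These shares were close to those of all loci. The 25 LOC_Os loci had a median difference of -0.16, with 10 above 0 and a range of -1.0 to 1.13. The 23 MSTRG loci had a median of 0.10, with 14 above 0 and a range of -1.01 to 1.74. Of the 7 transposon loci 2 were above and 5 below 0, with a median of -0.25. Both signs were thus present among the annotated, the assembled and the transposon loci.

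Several loci lay close to the limits on either side. The members nearest the ZH11 limit were LOC_Os04g45950 and LOC_Os10g19910, both with a highest ZH11 value of 0.49 TPM, and LOC_Os04g32080 with 0.47 TPM. Just outside were LOC_Os02g53240 with 0.54 TPM in 1 ZH11 library and 0 in the other 3, the retrotransposon locus LOC_Os07g10850 with 0.64 TPM, and the transposon locus LOC_Os05g04400 with 0.65 TPM. LOC_Os02g53240, an expressed protein of no described function, had 41.8 and 55.4 TPM in treated OE1 and 44.2 and 43.6 TPM in untreated OE1, more than all but 2 of the 48 loci. The members nearest the OE1 limit were MSTRG.19466, LOC_Os06g14870 and MSTRG.20181, with lowest OE1 values of 2.02, 2.04 and 2.08 TPM. Just outside were the transposon locus LOC_Os10g26840 with 1.90 TPM, LOC_Os12g39280 with 1.79 TPM and MSTRG.15403 with 1.76 TPM, all 3 listed at 0 in every ZH11 library.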

How the data were processed

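The authors' deposited matrix gave TPM per locus and library to 2 decimals for 57403 loci, with 1 line emptied, and was used as deposited. For the genes the authors called, their deposited tables held an estimated count in each library, the log2 fold change and an adjusted p-value. The deposited trimming and alignment tables gave each count of reads and bases and the percent GC, per the file headers. Cufflinks 2.2.1 appears in the submitters' processing notes, its use unstated. For the aligner, counting strand, assembler and build, the answer was not given in the sources used here. The supplied RefSeq table matched 0 of the 48 identifiers, so no coordinates or sequences were used.

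The loci, lists and tests were chosen with earlier results of these data known. Log2(TPM + 1) of the 8 libraries was fitted in limma with a mean for each of the 4 groups and an eBayes trend. The fit covered the 25281 loci with at least 1 TPM in at least 2 libraries. All 48 loci passed this filter, as their OE1 level required. The fit was also tried on simulated data with 1 spread for every locus and group. The spread of the real data is unequal, and that trial does not cover it. A call needs a Benjamini-Hochberg adjusted p under 0.05 with a log2 fold of 1 or more in size. Classes came from the description, or the Pfam domains for transposons. Loci were named by a rule on level, size of the treatment difference, annotation and nearness to the limits. The immediate neighbours by identifier were added after the data were seen. Alternatives covered scaling, pseudocount, filters, libraries left out and the limits themselves. TPM carry no depth, so no counting interval was given. Fits used limma 3.58.1 in R 4.3.3, and edgeR 4.0.16 gave only TMM factors on TPM. Tables and figures used Python 3.11.15, scipy 1.17.1, pandas 2.3.3, matplotlib 3.10.9 and numpy 2.4.6.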

Additional observations from a re-analysis of the deposited data

How the results depend on the processing

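The number of loci found depended on the limits. It was 18 with 0 TPM in each ZH11 library, 23 with at most 0.1 TPM there, 80 with at least 1 TPM in each OE1 library, 23 with at least 5 TPM, 80 from the untreated and 94 from the treated libraries alone. With the genotypes exchanged the number was 1, and it became 0 at 0 TPM, 2 at a silent limit of 1 TPM, 2 at an expressed limit of 1 TPM, 5 in untreated and 6 in treated libraries. Leaving out 1 library gave 49 to 55 loci and 1 in exchange, and TMM or median-of-ratios scaling gave 47 and 1. The transposon share stayed between 13% and 22.5% and the MSTRG share between 35.1% and 56.5%. Each alternative set held all loci of the main set or was a part of it, so these shares were not independent of the main ones.

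Within OE1, loci of the set called higher and lower numbered 0 and 0, and 4 and 1 with the OE1 libraries alone. With 1 library left out they ranged from 0 to 3 and from 0 to 1, and it was leaving out either treated ZH11 library that gave 3 and 1. A count at an unadjusted limma p under 0.05 was added after the data were seen. It gave 14 of the 48 loci, beside 2387 of the 25281 loci tested. With a pseudocount of 5 it gave 18, beside 2497. With a pseudocount of 0.1 it gave 2, beside 2250, and the share of the set was then under that of all loci. The limits kept the ZH11 spread of the set low on log2(TPM + 1), so its share there is not like for like with that of all loci. The median difference of the set was -0.01, 0.02 with TMM and 0.01 with median-of-ratios factors, and -0.18 to 0.02 with 1 library left out. The 10 differences named kept their direction under every alternative run. They were picked for groups that did not overlap, so leaving out a library or changing the pseudocount could not reverse them.

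Of all loci tested, 32 were called higher and 29 lower, and 57 higher with a pseudocount of 5, 19 and 17 without a filter, 389 and 168 with the OE1 libraries alone, and 0 to 210 and 0 to 131 with 1 library left out. Without any 1 OE1 library both were 0, without either treated ZH11 library 207 to 210 and 131, and without either untreated ZH11 library 19 to 20 and 7. With a block for the replicate number they were 13 and 12, with 0 loci of the set called either way. The labels do not say that a number marks a shared batch. Replicate differences had a correlation across loci of 0.06 between treated and untreated OE1, 0.23 between treated and untreated ZH11 and -0.28 between treated OE1 and treated ZH11. The cause of these shifts was not tested. Where an arm kept 1 library, that library was assumed to vary like the others.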

Other observations

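A few loci were silent in ZH11 and in OE1 of 1 condition only. With the same limits, 4 loci had at most 0.5 TPM in all ZH11 and untreated OE1 libraries and at least 2 TPM in both treated OE1 libraries, and 0 loci showed the opposite pattern, expressed in untreated OE1 only. LOC_Os09g07150, of no described function, had 16.5 and 17.4 TPM in treated OE1. The others were MSTRG.19809 with 10.3 and 15.1 TPM in treated OE1, LOC_Os01g33720, a hypothetical protein, with 8.50 and 8.46 TPM, and LOC_Os02g32700, annotated as an autophagy-related protein, with 2.84 and 2.90 TPM. All 4 were listed at 0 in the other 6 libraries. All but LOC_Os09g07150 are 264 nt or shorter. In ZH11, 1 locus of 210 nt, LOC_Os04g28330, was expressed in untreated seedlings only, at 2.51 and 9.06 TPM, and was listed at 0 in treated ZH11 and in all OE1 libraries. None of these differences was tested here, since the limits chose the loci by them.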
